A study of Mus musculus with 12 samples.

Results

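The proteasome genes analysed here are the 48 of 10475 genes in the deposited table of TPM (transcript abundance scaled to transcript length and library size) whose symbol begins with Psma, Psmb, Psmc, Psmd, Psme, Psmf or Psmg and a number. They comprise 14 subunits of the core particle (7 of the alpha ring and 7 of the beta ring), 3 inducible subunits of the immunoproteasome, 17 subunits of the cap (6 ATPases and 11 non-ATPases), 3 chaperones of cap assembly, 5 activator genes, 1 inhibitor gene, 4 chaperones of core assembly, and Psmc3ip. Psmc3ip matches by name alone: its product acts in meiotic recombination and is no part of the proteasome. Of the same family, Psma8 of the testis and Psmb11 of the thymus are outside the TPM table and are listed at 0 in the authors' deposited tables of both times.

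Poly(A) RNA of gastrocnemius, a mixed and mostly fast calf muscle, was sequenced from C57BL/6 mice aged 8 weeks. The 4 groups of 3 libraries were made: transgenic mice with liver-specific overexpression of E4BP4 (TG) at ZT12, wild type (WT) mice at ZT12, TG mice at ZT0 and WT mice at ZT0. ZT, or zeitgeber time, counts hours from lights on in a cycle of 12 h light and 12 h dark, and mice were fed chow. E4BP4, encoded by Nfil3, is a clock-linked transcriptional repressor. The promoter behind the transgene, the founder line, sex and batch are not given in the sources used here, and since nothing there says how libraries relate to animals, p-values measure only the spread between these libraries.

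The proteasome degrades proteins that carry ubiquitin chains. Its barrel-shaped core has outer alpha rings, which gate the entry, and inner beta rings, in which Psmb5, Psmb6 and Psmb7 encode the catalytic subunits. The cap binds ubiquitin, removes it and unfolds the substrate with its ATPases. Interferon induces Psmb8, Psmb9 and Psmb10, which replace Psmb5, Psmb6 and Psmb7 in newly built cores and favour the peptides that MHC class I molecules present, and it also induces the activator PA28 (Psme1 and Psme2). In wasting muscle the pathway is known for the breakdown of myofibrillar protein, and many of its subunit genes are targets of the transcription factor Nfe2l1.

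Promoter sequences of the paired constitutive and inducible catalytic subunits are shown because Psmb8 and Psmb9 had the largest spread between libraries of the 48 genes, and Psmb5 and Psmb6 are the subunits they replace. The windows are RefSeq's on GRCm38.p6, each running from 250 bases before to 50 after the annotated start, and capitals mark a match to TGACNNNGC, the core of the antioxidant response element.
Psmb8 (chr17:34197945-34198244, plus strand): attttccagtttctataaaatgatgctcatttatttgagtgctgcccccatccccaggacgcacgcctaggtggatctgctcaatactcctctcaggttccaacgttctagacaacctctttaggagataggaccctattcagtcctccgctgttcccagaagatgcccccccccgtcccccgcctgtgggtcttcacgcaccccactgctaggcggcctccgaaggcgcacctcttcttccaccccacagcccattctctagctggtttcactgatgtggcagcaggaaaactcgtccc
Psmb5 (chr14:54617946-54618245, minus strand): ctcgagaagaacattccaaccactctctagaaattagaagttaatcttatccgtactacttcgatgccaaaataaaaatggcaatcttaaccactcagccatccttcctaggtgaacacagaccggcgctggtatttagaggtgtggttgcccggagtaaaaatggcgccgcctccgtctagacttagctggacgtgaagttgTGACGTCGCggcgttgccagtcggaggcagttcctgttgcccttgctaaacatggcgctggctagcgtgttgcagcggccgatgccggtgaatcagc
Psmb9 (chr17:34187281-34187580, minus strand): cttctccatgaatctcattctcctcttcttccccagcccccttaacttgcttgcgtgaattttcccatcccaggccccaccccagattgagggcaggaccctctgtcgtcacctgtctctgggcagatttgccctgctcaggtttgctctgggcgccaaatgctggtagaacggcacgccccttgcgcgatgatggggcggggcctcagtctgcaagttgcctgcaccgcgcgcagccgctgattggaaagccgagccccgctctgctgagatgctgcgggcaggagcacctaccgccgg
Psmb6 (chr11:70525107-70525406, plus strand): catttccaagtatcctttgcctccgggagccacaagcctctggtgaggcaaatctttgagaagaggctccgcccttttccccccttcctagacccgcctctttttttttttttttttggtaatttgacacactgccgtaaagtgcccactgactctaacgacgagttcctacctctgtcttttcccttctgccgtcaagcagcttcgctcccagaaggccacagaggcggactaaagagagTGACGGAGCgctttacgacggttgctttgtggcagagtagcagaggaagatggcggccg
Psmb9 lies in the MHC class II region beside Tap1, the peptide transporter gene, which is read from the opposite strand. By the coordinates of the authors' deposited tables the genes lie head to head with 225 bases between their starts, so that the window printed for Psmb9 reaches into Tap1. Psmb8 lies beyond Tap1, on its strand.

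Both strands of each window were searched for 2 motifs. TGACNNNGC matched 9 bases before the start of Psmb6 and 47 bases before the start of Psmb5, and also in the windows of Psmc6, Psmd12, Psmd9 and Psme4. It was present in 13.64% of 44 windows of 41 matched proteasome genes, against 12.39% of all 32851 windows. GAAANNGAA, the core of the interferon-stimulated response element, matched in 15.91% of the proteasome windows, against 8.56% of all windows. Its matches were in Psmb3, Psmb4, Psmc2, Psmd4, Psmd9, Psme1 and Psmg4, with Psmd9 holding both motifs. Neither set of letters was found in the windows of Psmb8, Psmb9 or Psmb10. A match describes letters in a window and is no evidence of binding.

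There were 2 libraries that stood apart from the rest of the series, WT ZT0 replicate 2 and TG ZT12 replicate 1. Reads of the listed genes were recovered from the TPM values. In units of 1e+06 they were 13.1 to 15.8 in TG ZT12, 17.7 to 20.2 in WT ZT12, 10.4 to 11.5 in TG ZT0 and 9.21 to 13.1 in WT ZT0. The listed genes summed to 429014 to 450432 TPM per library, so these reads are only a part of each library. The 10 skeletal muscle markers were all listed and summed to 84588 to 96086 TPM, and none of 6 hepatocyte markers was listed. In WT ZT0 replicate 2 the 7 listed of 17 leukocyte markers summed to 1867 TPM, against 59.95 to 174 TPM in the other 11 libraries, and all 7 were highest there. Of the 10 unlisted leukocyte markers, 9 were in the authors' deposited ZT0 table and 9 were highest in that library. The 21 listed of 27 genes of interferon response and antigen presentation summed to 1510 TPM there, against 209.6 to 309.7 TPM elsewhere, and all 21 were highest there. Macrophage markers (8 listed) summed to 332 TPM in that library and 72.4 to 210.02 TPM in the others, and endothelial markers (5 listed) to 90.0 and 39.2 to 70.7 TPM. Red cell genes (6 listed) summed to 2042 to 6139 TPM in 2 libraries of each ZT12 group and to 119 to 245 TPM in the other 8. Median TPM was 9.26 in WT ZT0 replicate 2 and 4.96 in TG ZT12 replicate 1, the highest and the lowest of the 12 libraries. Nfil3 itself averaged 13.5 ± 6.65 TPM in TG ZT12, 11.8 ± 3.79 TPM in WT ZT12, 16.04 ± 3.72 TPM in TG ZT0 and 17.2 ± 1.42 TPM in WT ZT0 (SD, n = 3 each), and muscle cannot check a transgene labelled as liver-specific.

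The proteasome genes formed an abundant set, mostly core and cap subunits, and a low set of inducible subunits, chaperones and the inhibitor. TPM is scaled to transcript length, so levels are set beside each other across genes, as far as annotated lengths and shared reads allow. Mean levels over the 12 libraries ran from 2.08 TPM for Psmc3ip and 3.99 TPM for Psmf1 up to 218 TPM for Psmb7. All 48 genes passed the filter of 1 TPM in 3 libraries. In the alpha ring, Psma6 was highest at 105 TPM and Psma5 lowest at 7.78 TPM, and Psma3 averaged 14.7 TPM over the longest transcript of that ring in the deposited tables (2356 bases). RefSeq names a pseudogene of Psma5. Whether shared reads or the annotated length lower the levels of Psma5 and Psma3 was not tested. In the beta ring, Psmb7 was highest and Psmb3 lowest at 34.1 TPM. Among the ATPases, Psmc3 was highest at 110.01 TPM and Psmc4 lowest at 50.2 TPM. Among the cap non-ATPases, Psmd8 was highest at 146 TPM and Psmd11 lowest at 25.2 TPM.

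**Figure D1:**
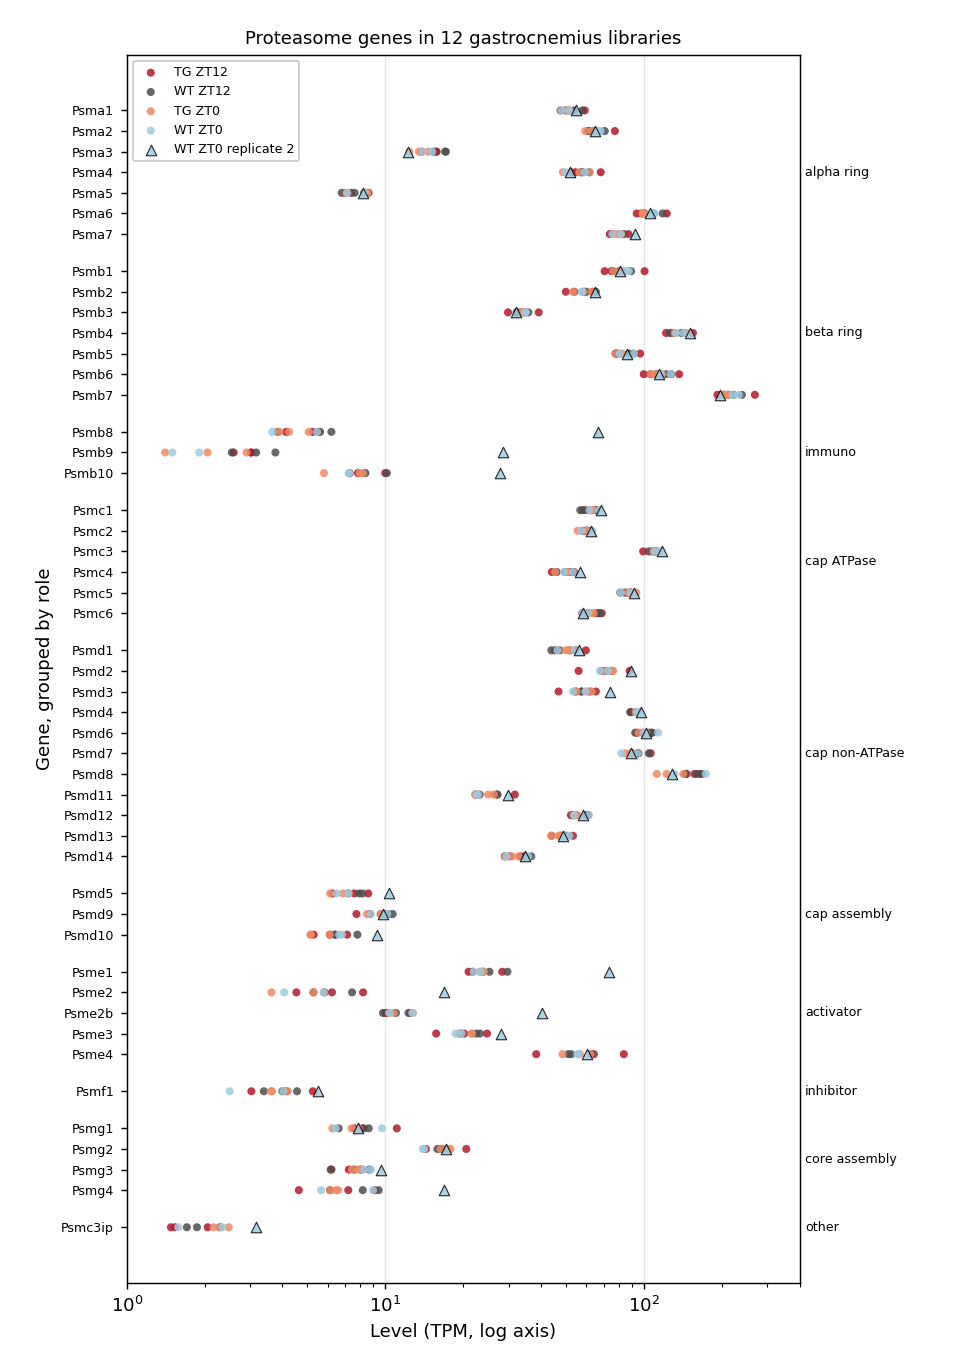
Level of each of the 48 genes (rows, grouped by role) in each library, in TPM on a log axis; points are libraries coloured by group and triangles are WT ZT0 replicate 2. The triangle lies far to the right of the other 11 libraries for Psmb8, Psmb9, Psmb10, Psme1, Psme2, Psme2b and Psmg4, and within or near their range for the core and cap.

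Core and cap subunits varied less among libraries than the median gene on the TPM scale as deposited. After group means were removed, the residual SD on the log2(TPM + 1) scale had a median of 0.12 for the 14 core subunits and 0.091 for the 17 cap subunits, against 0.24 for all 10415 genes tested. Psmd4, the ubiquitin receptor Rpn10 of the cap, had a residual SD of 0.038, the lowest of all genes tested on that scale. The sets also differ in level. Mean levels had a median of 73.1 TPM in the core and 62.4 TPM in the cap, against library medians of 4.96 to 9.26 TPM for listed genes. Genes of like level were not compared. The median SE of a fold change at 1 time was 0.12 for the 48 genes and 0.19 for all genes on TPM as deposited, 0.17 and 0.15 with median-of-ratios scaling, and 0.16 and 0.15 with upper-quartile scaling, so the lower spread of the 48 genes was not seen under those scalings. Levels of Psmd4 were 89.0, 95.5 and 93.8 TPM in TG ZT12, 88.6, 93.7 and 94.2 TPM in WT ZT12, 92.9, 94.4 and 94.7 TPM in TG ZT0, and 95.9, 97.1 and 94.4 TPM in WT ZT0. The highest library was 1.10 times the lowest. By contrast the residual SD was 1.07 for Psmb8 and 1.02 for Psmb9.

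Summed over the 7 alpha ring subunits, levels averaged 384 ± 41.3 TPM in TG ZT12, 394 ± 17.4 TPM in WT ZT12, 369.9 ± 4.63 TPM in TG ZT0 and 384 ± 8.50 TPM in WT ZT0 (SD, n = 3 each). The 7 beta ring subunits summed to 728 ± 106 TPM in TG ZT12, 743 ± 39.98 TPM in WT ZT12, 709.6 ± 13.5 TPM in TG ZT0 and 743 ± 26.6 TPM in WT ZT0. The TG ZT12 libraries alone spanned the range of all 12, which was 353 to 431 TPM for the alpha ring and 663 to 851 TPM for the beta ring. The 6 ATPases summed to 411 to 454 TPM and the 11 cap non-ATPases to 725 to 835 TPM. These sums are TPM shares of each library and do not tell fewer cells of a type from less RNA per cell.

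No proteasome gene passed the test for a difference between TG and WT muscle at either time. In limma's fit of log2(TPM + 1), 0 of 48 genes had a Benjamini-Hochberg adjusted p under 0.05 for TG over WT at ZT12, at ZT0 or over both times, where 0% of the 10415 genes tested were called in each. At an unadjusted p under 0.05 there were 0 proteasome genes at ZT12, 1 at ZT0 and 1 over both times, and limma-voom on recovered reads called 0 in each and put 1, 0 and 1 under that unadjusted level. The 95% intervals of TG over WT for both times together are from TPM as deposited and do not cover the choice of scaling. For every core subunit the interval lay between 0.83 and 1.17 times, and for every cap subunit between 0.81 and 1.23 times, on the TPM + 1 scale. With median-of-ratios scaling the median log2 fold change of the 48 genes was 0.052, against -0.049 on TPM as deposited. The median SE of their fold changes was 0.12 with that scaling, against 0.088 on TPM as deposited.

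The median log2 fold change of TG over WT for the 48 genes was -0.024 at ZT12, against -0.073 for all genes, and -0.060 at ZT0, against -0.10 for all genes. Above 0 were 15 of the 48 genes at ZT12 and 7 at ZT0. This direction depends on the scaling: with upper-quartile scaling the medians were 0.047 at ZT12 and 0.065 at ZT0, with 38 and 36 genes above 0, while all genes had medians of -0.015 and 0.0087. The median of the 48 genes was above that of all genes under either scaling with all 12 libraries. Without WT ZT0 replicate 2 it was below, at -0.022 for TG over WT at ZT0, against 0.025 for all genes.

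Psmd10 had the smallest p of the 48 genes for TG over WT at ZT0. It encodes gankyrin, a chaperone that holds ATPases during cap assembly. Its levels were 6.10, 7.12 and 5.28 TPM in TG ZT12, 6.37, 7.80 and 6.42 TPM in WT ZT12, 5.15, 6.10 and 5.13 TPM in TG ZT0, and 6.79, 9.27 and 6.63 TPM in WT ZT0. All 3 TG ZT0 libraries were below all 3 WT ZT0 libraries, of which replicate 2 was the highest, while the ZT12 groups overlapped. The log2 fold change at ZT0 was -0.40 ± 0.16 (SE) with limma's unadjusted p of 0.0305 and an adjusted p of 0.998. Over both times it was -0.27 ± 0.11 (SE), with an adjusted p of 0.945. Without WT ZT0 replicate 2 the value at ZT0 was -0.26 ± 0.15 (SE).

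At ZT0, 4 genes (Psma6, Psmd13, Psmd10 and Psmg3) were lower in all 3 TG libraries than in all 3 WT libraries and 0 were higher. That is 8.33% of the 48 genes, against 4.62% of all genes in either direction and 3.22% of all genes in the lower one. At ZT12, 0 of the 48 genes separated the genotypes, against 4.79% of all genes. These counts are from TPM as deposited, and whether the libraries stay apart under other scalings was not tested. The median-of-ratios scaling factor was 1.29 in WT ZT0 replicate 2, 0.983 and 0.921 in the other WT ZT0 libraries, and 0.896 to 1.02 in TG ZT0. Psma6 of the alpha ring had 101, 99.6 and 98.7 TPM in TG ZT0, against 108, 106 and 109.98 TPM in WT ZT0, with a log2 fold change of -0.11 ± 0.11 (SE). Psmd13, the cap subunit Rpn9, had 47.4, 46.8 and 43.9 TPM in TG ZT0, against 51.5, 48.6 and 49.4 TPM in WT ZT0.

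The next smallest p belonged to genes of several roles. At ZT12 the 3 smallest p for TG over WT belonged to Psmd9, a chaperone of ATPase assembly, Psmb2 of the beta ring and Psmd1, the large scaffold Rpn2 of the cap. Psmd9 had a log2 fold change of -0.20 ± 0.13 (SE), Psmb2 of -0.14 ± 0.11 (SE) and Psmd1 of 0.15 ± 0.12 (SE). At ZT0 they were Psmd10, Psmb8 and Psme2b, and over both times Psmd10, Psmg4 and Psmd9. In the authors' deposited tables none of the 48 genes (0) had a p under 0.05 at either time. The p listed at ZT0 for Psmb8 and Psmb9 may stand for missing values, so both may be untested there. Psmb8 had the largest log2 fold change of the 48 genes in that table, at -0.12. At ZT12 the authors' smallest p was 0.432 for Psmd1, with a log2 fold change of 0.082. At ZT0 it was 0.311 for Psme2b, with a log2 fold change of -0.093, both as TG over WT. The authors' log2 fold changes are unlike limma's in scale. At ZT0 they ran from -0.12 to 0.072 over the 48 genes, while limma gave -0.60 for Psme2b.

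**Figure D2:**
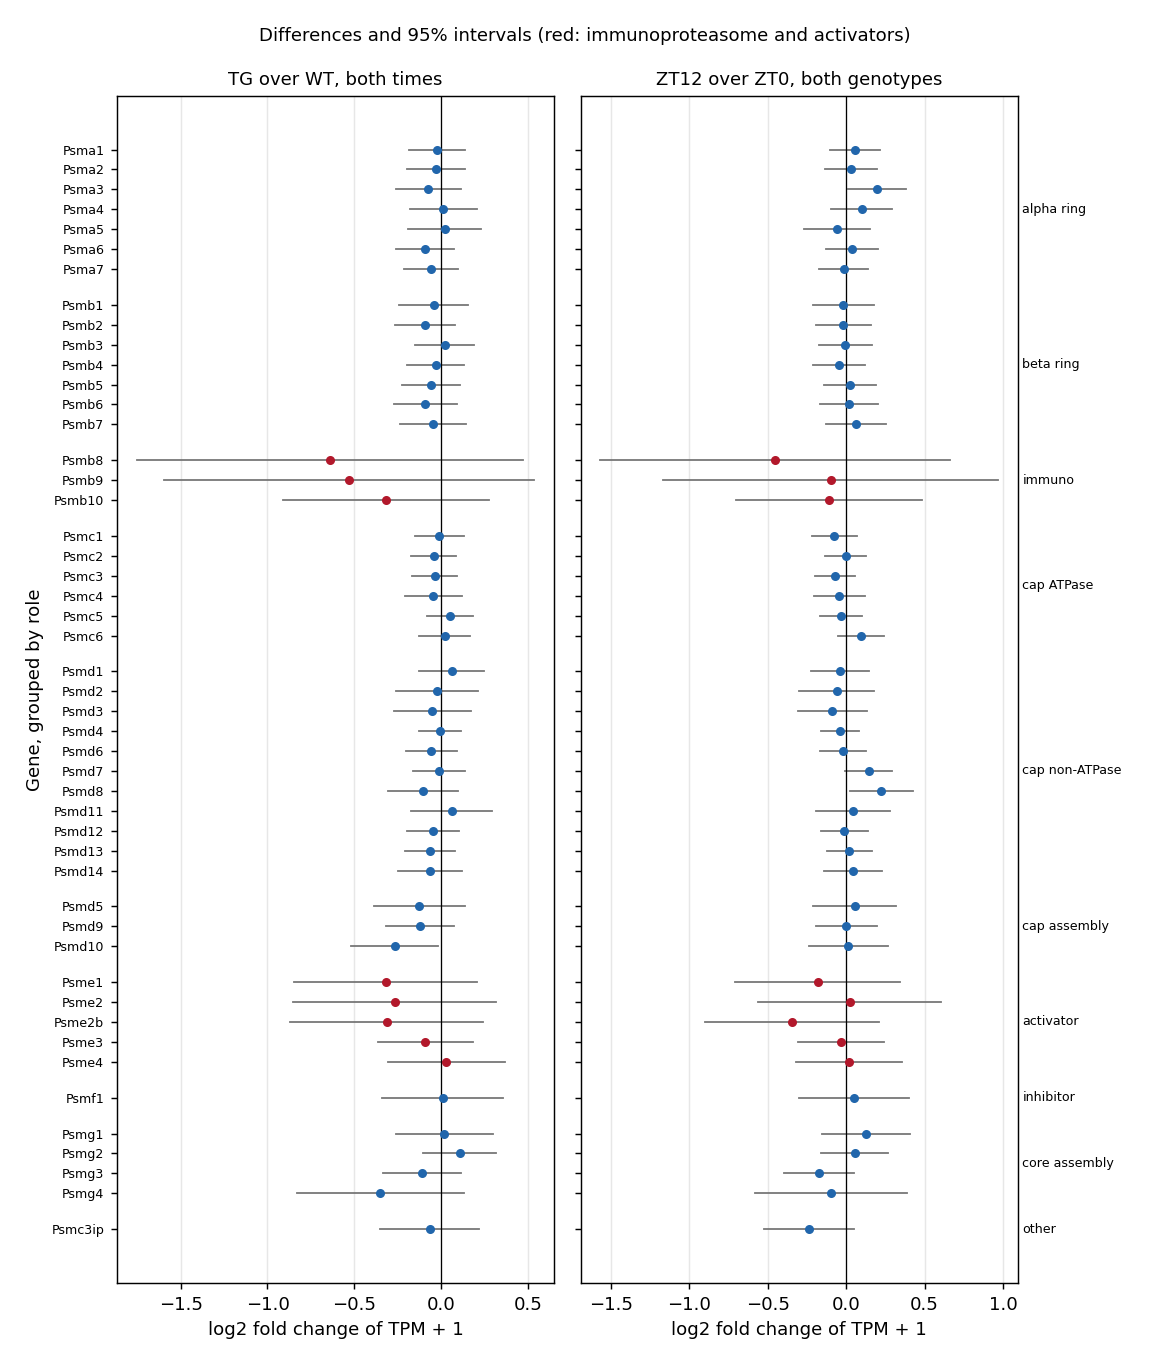
Log2 fold changes of TPM + 1 with 95% intervals from limma for TG over WT over both times (left) and ZT12 over ZT0 over both genotypes (right), 1 row per gene, with immunoproteasome and activator genes in red. Core and cap intervals are narrow and mostly include 0, while those of Psmb8 and Psmb9 span more than 2 units.

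No proteasome gene passed the test for time of day. For ZT12 over ZT0, 0 of 48 genes were called in TG muscle, in WT muscle and over both genotypes, where 0.154%, 0.115% and 0.883% of all genes were called. Unadjusted p under 0.05 was reached by 1 gene in TG, 0 in WT and 2 over both genotypes. Limma-voom called 0 of the 48 genes in each and put 0 under that unadjusted level. Over both genotypes every core interval lay between 0.83 and 1.30 times and every cap interval between 0.81 and 1.34 times. These intervals are also from TPM as deposited. The interaction of genotype and time also called 0 of the 48 genes and 0% of all genes, with 0 of the 48 under an unadjusted p of 0.05 in limma and in limma-voom. Its smallest p among them were those of Psmb8, Psme2b and Psmd10. Red cell genes were high in 2 libraries of each ZT12 group, as given above, and their part in the time comparisons was not tested.

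Psmd8, the cap subunit Rpn12, had the smallest p for time over both genotypes. Its levels were 165, 146 and 157 TPM in TG ZT12, 160.4, 167 and 145 TPM in WT ZT12, 142, 112 and 122 TPM in TG ZT0, and 174, 129 and 131 TPM in WT ZT0. In TG all 3 ZT12 libraries were above all 3 ZT0 libraries, whereas in WT replicate 1 of ZT0 was the highest of the 12. The log2 fold change was 0.32 ± 0.13 (SE) in TG, 0.13 ± 0.13 (SE) in WT and 0.22 ± 0.092 (SE) over both, with limma adjusted p of 1, 0.9997 and 0.623.

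Psma3 of the alpha ring came next. Its levels were 15.7, 15.8 and 13.8 TPM in TG ZT12, 17.1, 17.1 and 15.3 TPM in WT ZT12, 14.7, 13.5 and 12.4 TPM in TG ZT0, and 15.2, 12.3 and 13.9 TPM in WT ZT0. WT ZT12 libraries were all above the WT ZT0 libraries, and the TG groups overlapped. The log2 fold change was 0.20 ± 0.085 (SE) over both genotypes, with a limma adjusted p of 0.660. Psmd7, a cap subunit that pairs with the deubiquitinase Psmd14, followed, with a log2 fold change of 0.14 ± 0.069 (SE).

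Without overlap between times were 2 of the 48 genes in TG (Psmd8 higher and Psmc3ip lower at ZT12), which is 4.17%, against 7.08% of all genes. In WT they were also 2 (Psma3 higher and Psmd4 lower at ZT12), against 10.8% of all genes. These counts too are from TPM as deposited. For TG alone, the smallest p after Psmd8 were those of Psmc3ip, with a log2 fold change of -0.31 ± 0.18 (SE), and Psmg1, with 0.27 ± 0.18 (SE). For WT alone they were those of Psma3, Psme2b and Psmg3.

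For the constitutive catalytic subunits the highest library was 1.24 (Psmb5), 1.37 (Psmb6) and 1.40 (Psmb7) times the lowest. Psmb5, the chymotrypsin-like subunit, had 96.8, 79.0 and 77.8 TPM in TG ZT12, 78.0, 87.3 and 91.2 TPM in WT ZT12, 82.2, 81.7 and 78.0 TPM in TG ZT0, and 91.6, 86.4 and 80.6 TPM in WT ZT0. Psmb6, the caspase-like subunit, had 137, 99.9 and 106 TPM in TG ZT12, 112, 122 and 128 TPM in WT ZT12, 106, 117 and 111 TPM in TG ZT0, and 127, 114 and 116 TPM in WT ZT0. Psmb7, the trypsin-like subunit and the most abundant of all 48 genes, had 269, 204 and 193 TPM in TG ZT12, 212, 222 and 239.5 TPM in WT ZT12, 209, 212 and 203 TPM in TG ZT0, and 233, 197 and 221 TPM in WT ZT0. TG ZT12 replicate 1 was the highest of the 12 libraries for all of these, and the groups overlapped. The log2 fold changes of TG over WT over both times were -0.057 ± 0.076 (SE) for Psmb5, -0.091 ± 0.084 (SE) for Psmb6 and -0.046 ± 0.087 (SE) for Psmb7.

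The inducible subunits were low in 11 libraries and high in WT ZT0 replicate 2. Psmb8 (LMP7), the counterpart of Psmb5, had 5.25, 4.13 and 5.51 TPM in TG ZT12, 3.84, 5.598 and 6.19 TPM in WT ZT12, 3.89, 4.25 and 5.05 TPM in TG ZT0, and 5.45, 66.3 and 3.65 TPM in WT ZT0. Psmb9 (LMP2), the counterpart of Psmb6, had 3.03, 2.59 and 3.02 TPM in TG ZT12, 2.55, 3.17 and 3.76 TPM in WT ZT12, 1.41, 2.05 and 2.90 TPM in TG ZT0, and 1.91, 28.6 and 1.501 TPM in WT ZT0. Psmb10 (MECL-1), the counterpart of Psmb7, had 9.99, 7.83 and 7.27 TPM in TG ZT12, 7.26, 10.1 and 8.38 TPM in WT ZT12, 5.79, 8.19 and 7.96 TPM in TG ZT0, and 7.25, 27.8 and 7.21 TPM in WT ZT0. In WT ZT0 replicate 2 these were 10.7, 7.62 and 2.74 times the highest of the other libraries.

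As a share of its constitutive counterpart, the level of Psmb8 was 76.8% of that of Psmb5 in WT ZT0 replicate 2 and 4.53 to 7.08% in the other 11 libraries. Psmb9 stood at 25.1% of Psmb6 there and 1.29 to 2.94% elsewhere. Psmb10 stood at 14.1% of Psmb7 there and 2.77 to 4.56% elsewhere. The counts behind these levels ran from 14 to 322 reads for Psmb9, 59 to 1135 for Psmb8 and 91 to 493 for Psmb10. Leukocyte and interferon genes were also highest in that library, as given above. Their part in these levels was not tested.

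**Figure D3:**
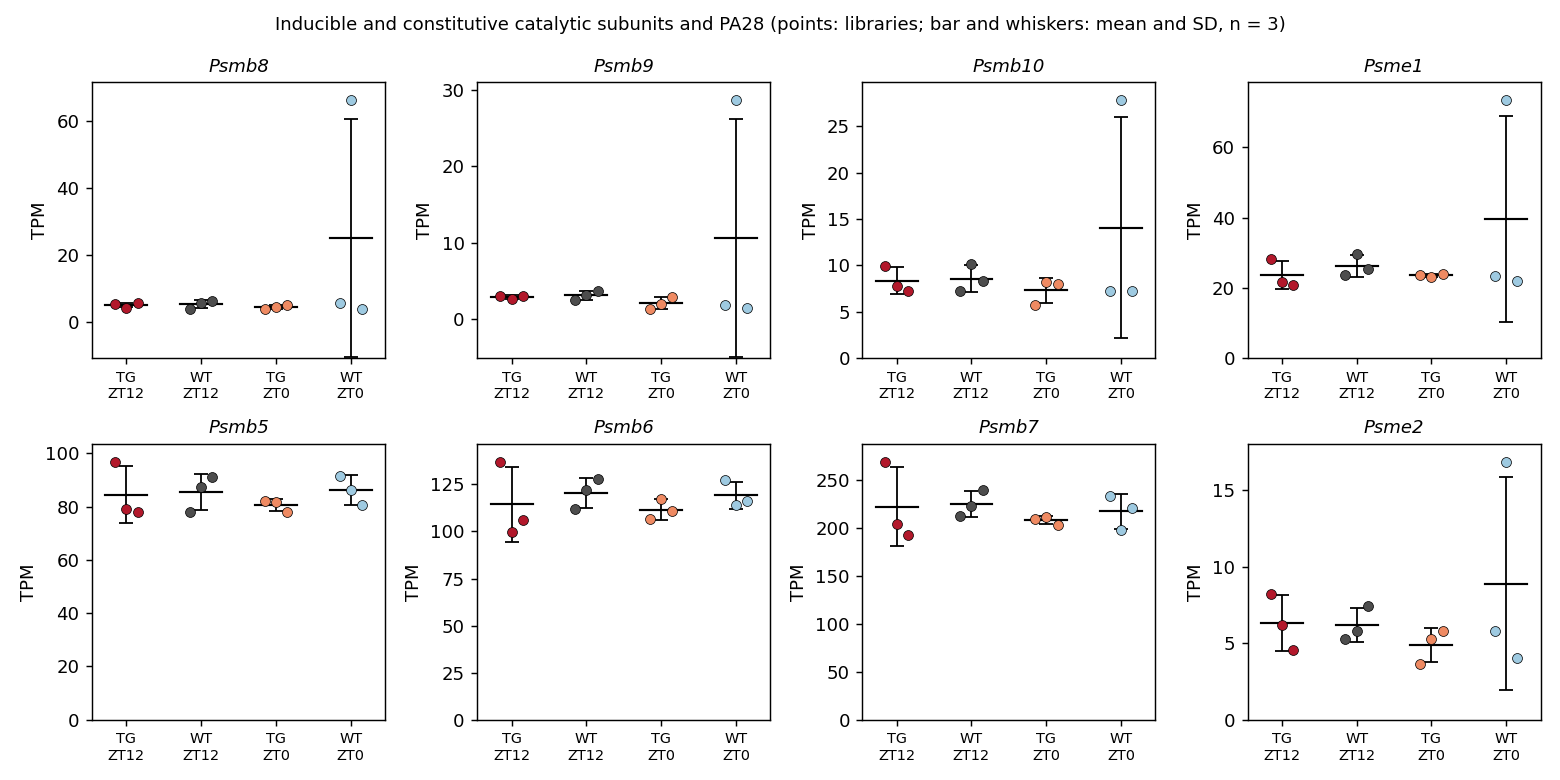
Levels in TPM of the inducible subunits Psmb8, Psmb9 and Psmb10 and of Psme1 (top) and of their constitutive counterparts Psmb5, Psmb6 and Psmb7 and of Psme2 (bottom); points are libraries, and bar and whiskers are mean and SD of 3 libraries. A single WT ZT0 library lifts the mean and SD of that group for the inducible subunits and PA28, while Psmb5, Psmb6 and Psmb7 overlap across groups.

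Comparisons that use the WT ZT0 group differed with and without that library. For TG over WT at ZT0, Psmb8 had a log2 fold change of -1.23 ± 0.72 (SE) with all libraries and -0.027 ± 0.21 (SE) without WT ZT0 replicate 2. Psmb9 had -0.97 ± 0.69 (SE) with it and 0.18 ± 0.20 (SE) without it, and Psmb10 had -0.60 ± 0.39 (SE) with it and 0.0013 ± 0.18 (SE) without it. None was called either way.

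Without that library Psmb9 had the smallest p of the 48 genes for time over both genotypes. The remaining levels were 2.55 to 3.76 TPM in the 6 ZT12 libraries and 1.41 to 2.90 TPM in the 5 ZT0 libraries, so the times overlapped. The log2 fold change of ZT12 over ZT0 over both genotypes was 0.48 ± 0.14 (SE, 95% interval 0.18 to 0.77) without it, with a limma adjusted p of 0.184, and -0.10 ± 0.49 (SE) with it. With TG ZT12 replicate 1 also left out the adjusted p was 0.097, the smallest of any proteasome gene under any setting tried. Psmb8 and Psmb10 had 0.15 ± 0.14 and 0.19 ± 0.12 (SE) in the same comparison without WT ZT0 replicate 2.

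The activators of the PA28 family that pair in the cytoplasm had the same high library. PA28 alpha, encoded by Psme1, had 28.3, 21.8 and 21.0 TPM in TG ZT12, 23.8, 29.7 and 25.3 TPM in WT ZT12, 23.8, 23.2 and 24.1 TPM in TG ZT0, and 23.4, 73.3 and 21.9 TPM in WT ZT0. PA28 beta, encoded by Psme2, had 8.21, 6.22 and 4.53 TPM in TG ZT12, 5.27, 5.83 and 7.44 TPM in WT ZT12, 3.63, 5.28 and 5.79 TPM in TG ZT0, and 5.77, 16.9 and 4.07 TPM in WT ZT0. Psme2b, a near-identical copy whose reads the authors' counting may split with Psme2, had 12.5, 10.1 and 10.02 TPM in TG ZT12, 10.996, 9.80 and 12.3 TPM in WT ZT12, 10.3, 12.8 and 10.8 TPM in TG ZT0, and 12.7, 40.4 and 10.4 TPM in WT ZT0. All were highest in WT ZT0 replicate 2, at 2.47 times the highest other library for Psme1, 2.05 times for Psme2 and 3.16 times for Psme2b. For TG over WT at ZT0 the log2 fold changes were -0.49 ± 0.34 (SE) for Psme1, -0.54 ± 0.38 (SE) for Psme2 and -0.60 ± 0.36 (SE) for Psme2b. Without that library they were 0.061 ± 0.14, -0.0088 ± 0.24 and -0.029 ± 0.15 (SE).

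The nuclear activators showed no such excess, at 1.13 times the highest other library for Psme3 and 0.72 times for Psme4. Psme3 encodes PA28 gamma and had 15.7, 24.7 and 20.2 TPM in TG ZT12, 22.5, 23.2 and 19.5 TPM in WT ZT12, 21.6, 21.6 and 19.3 TPM in TG ZT0, and 19.7, 27.9 and 18.7 TPM in WT ZT0. Psme4 encodes PA200 and had 38.3, 83.7 and 64.1 TPM in TG ZT12, 52.3, 62.5 and 51.0 TPM in WT ZT12, 62.1, 56.5 and 48.4 TPM in TG ZT0, and 55.7, 60.3 and 55.5 TPM in WT ZT0. Both had their lowest value in TG ZT12 replicate 1, and Psme4 had its highest in TG ZT12 replicate 2, so the TG ZT12 group alone spanned the whole range of Psme4. The log2 fold changes of TG over WT over both times were -0.09 ± 0.13 (SE) for Psme3 and 0.029 ± 0.15 (SE) for Psme4. Psmf1, which encodes the inhibitor PI31, ranged from 2.50 to 5.50 TPM and had 0.0077 ± 0.16 (SE).

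In all, 7 of the 48 genes reached at least 1.5 times the highest other library in WT ZT0 replicate 2, which is 14.58%, against 14.9% of all genes. They were the inducible subunits, Psme1, Psme2, Psme2b and Psmg4. That library was the highest of the 12 for 20 of the 48 genes, against 54% of all genes. No core or cap subunit was among the 7, and the highest such ratio in the core and cap was 1.14 for Psmd3.

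The assembly chaperones were low, and none was called in any comparison. Psmg1 and Psmg2 pair to start the alpha ring, and Psmg3 and Psmg4 pair to order it. Psmg1 averaged 8.94 ± 1.87 TPM in TG ZT12, 7.83 ± 1.08 TPM in WT ZT12, 7.18 ± 0.847 TPM in TG ZT0, and 8.00 ± 1.65 TPM in WT ZT0 (SD, n = 3 each). Psmg2 averaged 17.1 ± 3.16 TPM in TG ZT12, 16.6 ± 0.801 TPM in WT ZT12, 17.3 ± 0.778 TPM in TG ZT0, and 15.1 ± 1.84 TPM in WT ZT0. Psmg3 averaged 7.17 ± 0.948 TPM in TG ZT12, 7.46 ± 1.26 TPM in WT ZT12, 7.76 ± 0.283 TPM in TG ZT0, and 8.90 ± 0.673 TPM in WT ZT0. TG and WT libraries of each overlapped at ZT12, and at ZT0 those of Psmg3 did not. Psmg4 had 9.11, 4.63 and 7.19 TPM in TG ZT12, 8.18, 6.11 and 9.43 TPM in WT ZT12, 6.57, 6.12 and 6.46 TPM in TG ZT0, and 8.97, 16.8 and 5.65 TPM in WT ZT0, and its value in WT ZT0 replicate 2 was 1.78 times the highest other library. Its log2 fold change of TG over WT over both times was -0.35 ± 0.22 (SE), with limma's adjusted p of 0.945. In cap assembly, Psmd5 ranged from 6.11 to 10.3 TPM and Psmd9 from 7.73 to 10.7 TPM.

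Of 30 genes that act with the proteasome, 29 were listed and 0 were called in any comparison. Unadjusted p under 0.05 in limma was reached by 1 of them for TG over WT at ZT12, 0 at ZT0 and 1 over both times, and by 1 in TG, 1 in WT and 2 over both genotypes for ZT12 over ZT0. Among them Uchl5, a deubiquitinase of the cap, averaged 14.5 ± 0.0645 TPM in TG ZT12, 14.4 ± 0.48 TPM in WT ZT12, 12.6 ± 0.556 TPM in TG ZT0, and 12.5 ± 0.93 TPM in WT ZT0 (SD, n = 3 each), with a log2 fold change of 0.19 ± 0.073 (SE) for ZT12 over ZT0 over both genotypes and a limma adjusted p of 0.522. Nfe2l1, the activator of subunit genes, averaged 161 ± 29.1 TPM in TG ZT12, 171 ± 18.1 TPM in WT ZT12, 157 ± 17.2 TPM in TG ZT0, and 167 ± 15.6 TPM in WT ZT0, and Pomp, the chaperone that joins the core's parts, averaged 98.4 ± 17.3 TPM in TG ZT12, 105 ± 6.65 TPM in WT ZT12, 89.9 ± 5.13 TPM in TG ZT0, and 95.7 ± 3.34 TPM in WT ZT0.

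In several libraries, TG and WT, the differences of proteasome genes from their means went with transcript length, a pattern seen after the values were known. For each gene the log2 value of a library was set against its mean over 12 libraries, for the 39 genes other than the immunoproteasome, the activators and Psmc3ip. In TG ZT12 replicate 1, the 15 genes under 1200 bases had a median difference of 0.22, with 12 of 15 above 0, and the 7 genes over 2000 bases had -0.22, with 1 of 7 above 0. In TG ZT12 replicate 2 the short genes had -0.10 and the long genes 0.19. Spearman's rho between length and difference across the 39 genes was -0.58 in TG ZT12 replicate 1 and 0.64 in TG ZT12 replicate 2, and across all 10415 genes it was -0.57 and 0.47. Across the 39 genes it was 0.34 in TG ZT12 replicate 3, 0.11, 0.49 and -0.50 in WT ZT12, 0.48, 0.077 and -0.32 in TG ZT0, and -0.21, 0.16 and -0.34 in WT ZT0. Across all genes rho was 0.32 in TG ZT12 replicate 3 and 0.15, 0.015 and -0.25 in WT ZT12. It was 0.25, 0.14 and -0.36 in TG ZT0, and -0.19, 0.25 and -0.14 in WT ZT0. The slope of the 39 genes in WT ZT12 replicate 2 was thus not seen across all genes. The long genes had a median difference of 0.28 in WT ZT0 replicate 2, above that of TG ZT12 replicate 2, and the short genes 0.012. For all genes of WT ZT0 replicate 2 it was 0.36 over 2000 bases and 0.13 under 1200 bases. Genes of a library share its preparation and are not replicates. The short genes here are 11 core subunits and 4 core chaperones, and the long ones are Psma3, Psmd1, Psmd2, Psmd3, Psmd5, Psmd9 and Psmf1, so length and role cannot be told apart among them.

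**Figure D4:**
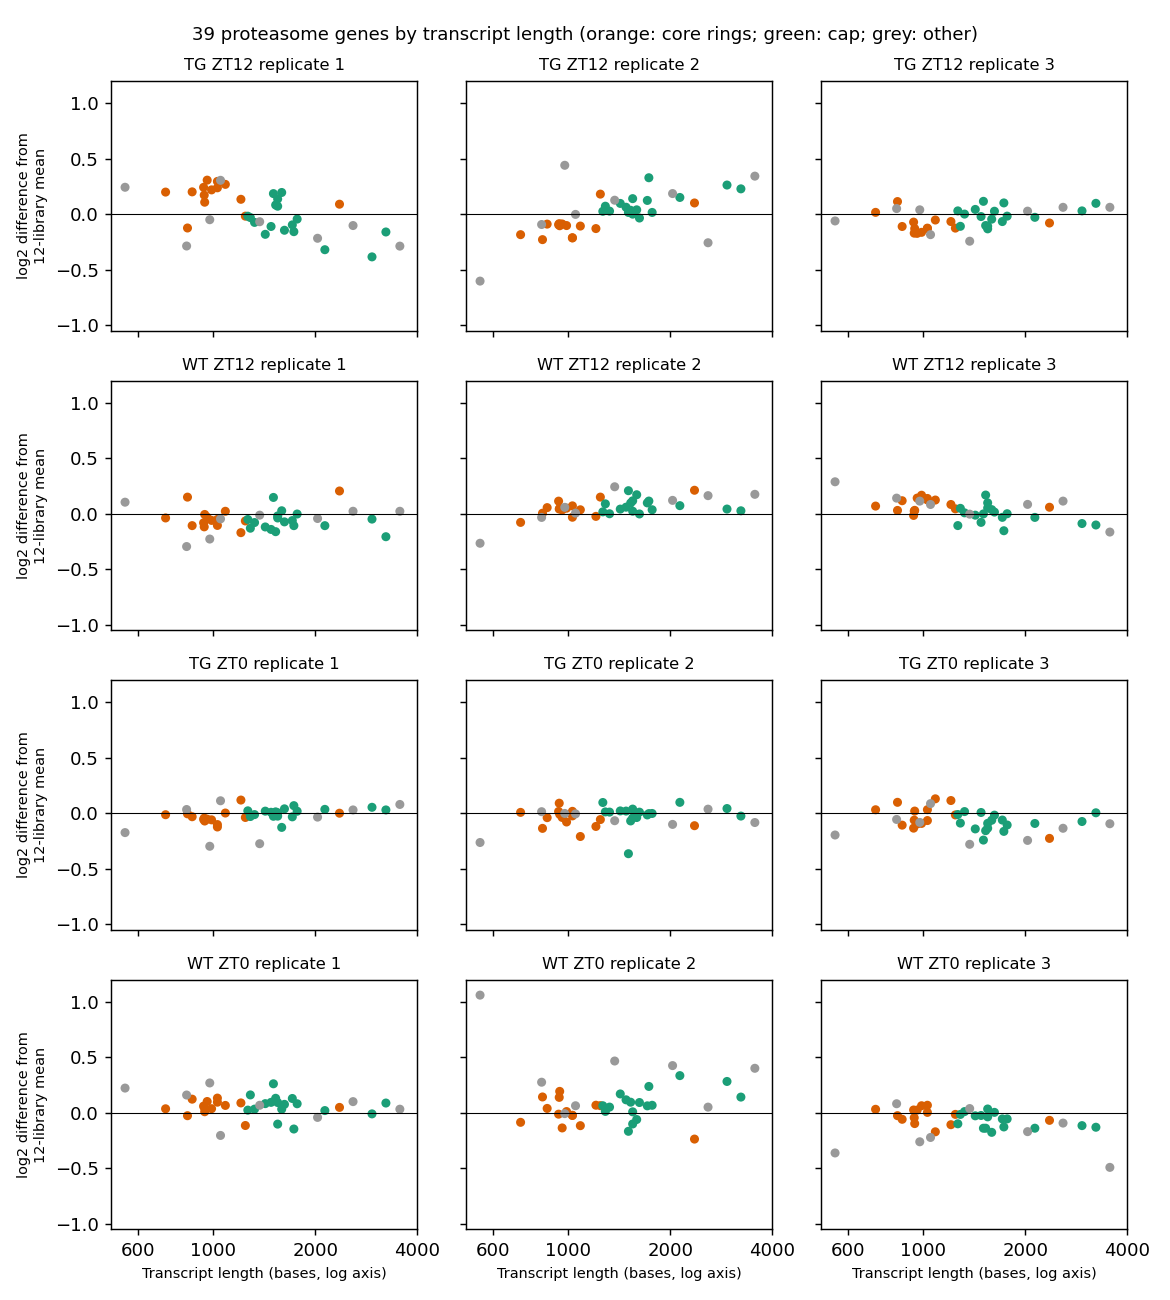
Difference of each of 39 genes from its 12-library mean, in log2(TPM + 1), against transcript length in bases on a log axis, with 1 panel per library; orange marks core rings, green the cap and grey the chaperones and inhibitor. Points slope down in TG ZT12 replicate 1 and up in TG ZT12 replicate 2, and weaker slopes of either sign occur in other groups, such as up in WT ZT12 replicate 2 and down in WT ZT12 replicate 3. The slope in WT ZT12 replicate 2 was not seen across all genes.

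This spread enters the TG ZT12 comparisons. The core summed to 1282 TPM in TG ZT12 replicate 1, against 1031 and 1024 TPM in TG ZT12 replicates 2 and 3, 1077 to 1187 TPM in WT ZT12, 1070 to 1090 TPM in TG ZT0 and 1103 to 1162 TPM in WT ZT0. Leaving out TG ZT12 replicate 1 gave a median log2 fold change of the 48 genes of -0.074 for TG over WT at ZT12, against -0.024 with it, and the same change moved the median of all genes to 0.039, against -0.073.

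Among genes other than the 14 core subunits, which were left out of this ranking, those closest to the core mean over the 12 libraries lie outside the proteasome. They are short as well. Pearson's r with the core mean was 0.934 for Hint2 (584 bases), a mitochondrial hydrolase, and 0.933 for Polr1d (896 bases), a subunit of RNA polymerases I and III. It was 0.922 for Spcs1 (1000 bases), a subunit of the signal peptidase. Among proteasome genes outside the core, r was highest for Psmd13 at 0.767 and lowest for Psme4 at -0.734. The 12 points share their library and their scaling, and the values are a description.

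Exon annotation sets limits for single genes. The library kit does not mark strand, and in GENCODE M21 exons of Psmd9 overlap Gm26745 on the opposite strand over 25.5% of their bases, those of Psmc3ip overlap Mlx over 21.2%, those of Psmb8 overlap Gm20496 over 14.7%, those of Psmb7 overlap Nek6 over 11.8% and those of Psmb9 overlap Tap1 over 5.79%. The overlap with Tap1 is in GENCODE M21 only, since the deposited coordinates leave a gap between these genes. Reads from such pairs cannot be told apart here. RefSeq also names pseudogenes of Psma5, Psmb5, Psmb6 and Psmb7, with which reads may be shared.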

How the data were processed

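Poly(A) RNA of 12 gastrocnemius libraries, 3 in each of 4 groups, was sequenced by the authors. The software that the submitters' processing notes list is STAR, HOMER (4.11.1), bcl2fastq and DESeq2, with mm10 as the build. The authors deposited 1 table of TPM for 10475 genes, each with at least 1 TPM in WT ZT0 replicate 1. Per the file headers, the deposited tables of each time were made with HOMER from exon reads and hold the authors' log2 fold changes, p-value and adjusted p-value, and transcript length. Their per-library columns, headed FPKM, hold shrunken values on a log2 scale and were used here only for genes outside the TPM table.

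No counts were in the files, so limma 3.58.1 (trend, R 4.3.3) was run on log2(TPM + 1) with 4 group means, on the 10415 genes that reached 1 TPM in 3 or more libraries, with Benjamini-Hochberg adjustment over all of them and calls at an adjusted p under 0.05. Fold changes on that scale understate low genes. Reads were recovered as TPM times length at 1 scale per library (99.97 to 100% of values whole within 0.1 read, judged below 500 reads), and limma-voom was run on them as an alternative. Further settings were scaling by upper quartile or by median of ratios, a filter of 5 TPM or none, pseudocounts of 0.1 and 5, the replicate number as a block, a fit that left out both TG ZT12 replicate 1 and WT ZT0 replicate 2, and each library left out in turn. The fit was tested on simulated data with noise drawn for each gene apart, which leaves out shifts shared by genes of a library. There the median estimate of the changed genes was within 0.1 of the true log2 fold change. The share of changed genes found is not reported here. Intervals cover the spread between libraries and not the choice of scaling.

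Named genes were the catalytic subunits and their inducible counterparts, the activators, the inhibitor and the core chaperones, the highest and lowest gene of each role, and the 3 smallest p per comparison. Others were chosen after their values were seen. The members and lists were chosen with earlier results of these data known. Results of 1 listed pathway gene are not reported here. Motifs were searched in RefSeq promoter windows of GRCm38.p6. Python 3.11.15 was used with pandas 2.3.3, numpy 2.4.6 and, for figures, matplotlib 3.10.9.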

Additional observations from a re-analysis of the deposited data

How the results depend on the processing

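No proteasome gene was called in any of the 7 comparisons under any alternative run, where the smallest adjusted p was 0.097 (Psmb9, without both libraries that stand apart). The median log2 fold change of the 48 genes changed sign with scaling in several comparisons. For TG over WT at ZT12 it was 0.067 with median-of-ratios scaling, 0.047 with upper-quartile scaling and 0.061 with limma-voom on recovered reads. For TG over WT at ZT0 it was 0.053 with median-of-ratios scaling, 0.065 with upper-quartile scaling and 0.042 with limma-voom on recovered reads. For TG over WT over both times it was 0.052, 0.048 and 0.046 in the same order. For ZT12 over ZT0 in WT it was 0.0069, 0.018 and -0.0068 in that order, against -0.040 on TPM as deposited. For ZT12 over ZT0 over both genotypes it was 0.029, 0.024 and 0.014, against -0.0069. For ZT12 over ZT0 in TG and for the interaction it kept its sign under these runs. For the interaction it was -0.043 without both libraries that stand apart. The cause was not tested. With each library left out in turn, the median ranged from -0.074 to 0.018 for TG over WT at ZT12, -0.11 to -0.022 at ZT0 and -0.071 to -0.022 over both times. For ZT12 over ZT0 it ranged from 0.0077 to 0.064 in TG, -0.092 to 0.013 in WT and -0.033 to 0.024 over both genotypes, and for the interaction from 0.0030 to 0.10.

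Of 4389 single-gene values under the alternatives, for 30 named genes, 62 moved by more than the spread between libraries and 0 changed their call. Without WT ZT0 replicate 2 those that moved were Psmb8, Psmb9, Psmb10, Psme1 and Psme2b. Calls over all genes for ZT12 over ZT0 over both genotypes were 92 in limma and 214 in limma-voom, 204 with median-of-ratios scaling, 191 with upper-quartile scaling, 419 without both libraries that stand apart and 157 without TG ZT12 replicate 1. In TG they were 16, 30, 31, 29, 71 and 20 under the same fits, and in WT 12, 66, 55, 47, 73 and 35. For TG over WT at ZT12 they were 0 in limma and 2 without both libraries. Same-numbered libraries were not shown to be pairs: over 18 pairs the correlation of residuals ran from -0.35 to 0.29, and the closest library bore the same number for 5 of 12. With the replicate block, 0 proteasome genes were called in each comparison, and calls over all genes for time over both genotypes numbered 96. Low reads limit Psmb9, Psmc3ip, Psme2 and Psmg4 most.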
